A study of Mus musculus with 20 samples.

Results

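The complement system is described here through 9 of its genes, out of 17104 genes listed in at least 1 of the expression tables, in prostate tumor cells sorted from bone metastases. The members were Serping1 (Entrez gene 12258), Clu, C3, Cfb, C4b, C1ra, C1s1, Cd55 and Cd59a. They were selected on the measured values: Serping1 had the largest fitted rise of all 10119 genes tested in enzalutamide-resistant against treatment-naive tumors (rank 1), and the other 8 were taken as components and regulators of the same system. That contrast, Resist versus Naive, is therefore given for the members as a description, without p-values. The tables list genes by Entrez gene number, and all 9 members were found after symbols were assigned to those numbers.

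MycCaP-Bo is a bone-homing derivative, made by serial selection in mice, of MycCaP, an androgen-dependent line from the Myc-driven HiMyc prostate tumor model in the FVB strain. It was given by intracardiac injection to mice aged 4 to 6 weeks, and iRFP+ CD45- tumor cells were sorted from the bone lesions, the cells of 3 mice being pooled for each library. Naive tumors received vehicle. Resist tumors received enzalutamide, an anti-androgen drug, at 30 mg per kg by daily gavage for 18 days. Naive-Mac tumors received vehicle and, over 4 days, liposomal clodronate, which depletes phagocytes, at 1 mg per mouse in each intravenous injection. Resist-Mac tumors received enzalutamide for 18 days with clodronate in the last 4 days. Each of the 4 groups had 5 libraries. All groups thus carry the same engineered line, and a p-value here measures the spread between libraries of pooled mice. Naive and Resist libraries were handled as 1 labelled batch, Resist-Mac as another and Naive-Mac as the third, so in every comparison but Resist versus Naive the batch and the group cannot be told apart.

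Complement is a set of plasma and membrane proteins that marks surfaces for uptake and can end in lysis. The classical and lectin routes (C1q, C1r, C1s, C4) and the alternative route (factor B) meet at C3, whose cleavage products coat the target. Host cells hold the system in check with secreted inhibitors, such as the C1 inhibitor encoded by Serping1 and clusterin encoded by Clu, and with membrane regulators such as CD55, CD59 and, in rodents, Crry (Cr1l). Most circulating complement is made in the liver, but fibroblasts, macrophages and many epithelial cells also make some of it.

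The values were FPKM (sequenced fragments scaled by transcript length and by the total of the library), which allow levels of different genes to be set side by side. Read depth was not given in the tables. Relative depth inferred from the smallest steps between low values ran from 0.869 to 1.16 among the Naive and Resist libraries, and the libraries had 12087 to 14056 genes above 0. The epithelial marker Krt8 was at 84.8 FPKM or more in all 20 libraries, whereas Krt18 and Cdh1 did not pass 0.23 and 0.18 FPKM and Epcam, which was listed only in the Naive-Mac table, did not pass 0.05 FPKM. Transcripts of neutrophils were present in the sorted cells: the 6 neutrophil markers summed to 169 to 1211 FPKM in Naive, 58.6 to 568 in Resist, 57.7 to 5960 in Naive-Mac and 388 to 8397 in Resist-Mac. The 9 macrophage markers summed to 2.55 to 89.7 FPKM over all libraries. Their sum was 89.7, 29.49 and 55.74 FPKM in Resist-Mac replicates 1, 4 and 5 and did not pass 25.96 FPKM in any other library. Cd14 reached 74.73 FPKM in Resist-Mac replicate 1, and Mertk reached 8.29 FPKM in Resist replicate 2. Ptprc (CD45), Cd68 and Csf1r reached 5.35, 4.32 and 2.1 FPKM, each in a Resist-Mac library. Fcgr1 did not pass 0.79 FPKM, and Adgre1, Cd163 and Mrc1 did not pass 0.52 FPKM in any library. In bulk samples, fewer cells of a type and less RNA per cell cannot be told apart.

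The library labelled Naive-Mac replicate 2 stood apart from its group, and its label is in doubt. Of 520 genes other than Serping1 that were called higher in Resist than in Naive and were listed in all tables, 338 (65.0%) had their highest Naive-Mac value in this library, against 16 to 80 genes in each of the other 4. Its neutrophil marker sum, 57.7 FPKM, was the lowest of the group, where the others ran from 728 to 5960. The median log2 level of the 520 genes was 2.38 in it, 1.61 to 1.95 in the other Naive-Mac libraries and 2.83 to 3.15 in Resist-Mac. Whether it was mislabelled was not tested. It was kept in its labelled group, and the tests that use Naive-Mac are given with and without it.

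Serping1, the secreted inhibitor of the proteases C1r and C1s and of plasma kallikrein, was low in the vehicle-treated tumors and higher after enzalutamide. The 5 Naive libraries had 0.25, 1.01, 0.55, 1.31 and 0.16 FPKM. The 5 Resist libraries had 13.3, 14.6, 5.84, 7.71 and 23.2 FPKM. Every Resist library was above every Naive library. The means were 0.656 ± 0.494 FPKM in Naive and 12.9 ± 6.80 FPKM in Resist (SD, n = 5 each), a 19.7-fold difference and a fitted change of 2.98 on the log2(FPKM + 1) scale (SE 0.31). The added 1 understates the change of a gene as low as Serping1 was in Naive tumors.

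The same gene was then read in the macrophage-depleted tumors, whose libraries do not enter the Resist versus Naive contrast, although results of all groups were known when the members were chosen. Resist-Mac libraries had 27.9, 13.3, 17.8, 10.9 and 4.36 FPKM of Serping1. Naive-Mac libraries had 0.1, 10.3, 0.47, 0.32 and 0.1 FPKM. The groups overlapped only through Naive-Mac replicate 2, which read higher than the lowest Resist-Mac library. Resist-Mac versus Naive-Mac gave a rise of Serping1 of 2.84 in log2 units (SE 0.60; adjusted p = 0.0011 by limma; exact two-sided permutation p = 0.0159), where the median of all genes moved by 0.34, leaving 2.50 above that shift. Without Naive-Mac replicate 2 the Naive-Mac mean was 0.248 ± 0.181 FPKM (SD, n = 4), Resist-Mac was 60.0-fold higher and the fitted change was 3.48 (SE 0.37, limma adjusted p = 1.15e-05). Over the 20 alternative analyses the change ran from 2.38 to 4.33 and was called in each. By fitted change Serping1 ranked 17 of 9760 genes in this comparison.

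**Figure D1:**
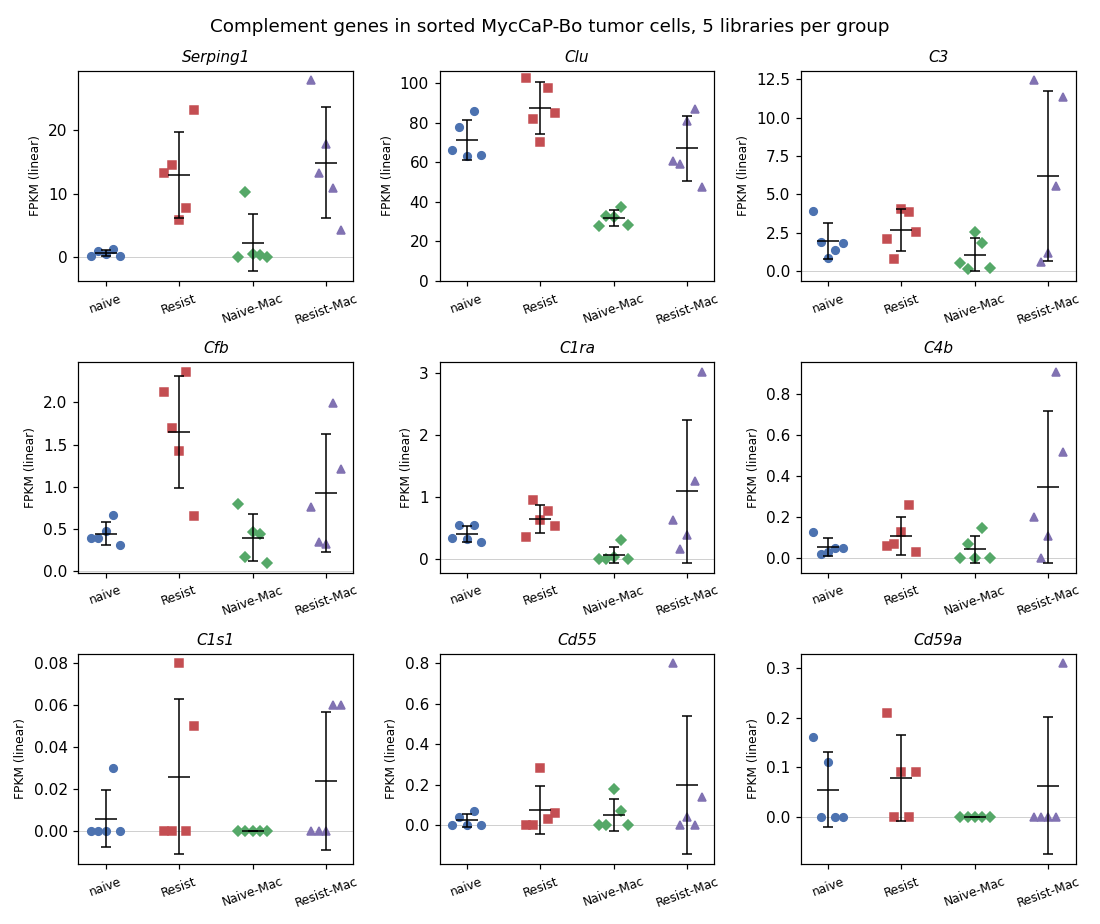
Expression of the 9 complement genes in each library, in FPKM on linear axes that differ between panels, with the mean and SD of each group of 5 in black; points run from replicate 1 to 5. Serping1 is above 4 FPKM in all Resist and Resist-Mac libraries and in Naive-Mac replicate 2 alone among the vehicle libraries; the panels of C1s1, Cd55, Cd59a and C4b do not reach 1 FPKM.

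Across all groups, the 10 enzalutamide libraries had 4.36 to 27.9 FPKM of Serping1 and the 9 vehicle libraries other than Naive-Mac replicate 2 had 0.1 to 1.31 FPKM. Because these values come from separately made tables, the place of Serping1 among the 13850 genes listed in all of them was also taken. Its median percentile was 26.9 in Naive, 63.8 in Resist, 25.5 in Naive-Mac and 66.2 in Resist-Mac, and it was 65.9 in Naive-Mac replicate 2. Neighbors in the order of group means were close: Resist-Mac (14.9 ± 8.75 FPKM) and Resist (12.9 ± 6.80) differed by -0.13 in log2 units for Resist versus Resist-Mac (SE 0.42; adjusted p = 0.831 by limma). The sign turned in 4 of 20 alternatives, and a p of this size does not show that the levels were equal. Naive versus Naive-Mac gave -0.27 (SE 0.54, limma adjusted p = 0.655), a value that Naive-Mac replicate 2 sets. Without it the sign turned: the means were 0.656 FPKM in Naive and 0.248 FPKM in Naive-Mac, a difference of 0.37 in mean log2(FPKM + 1), and the groups did not separate (exact two-sided permutation p = 0.183); Serping1 was then below the filter for limma.

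Fibroblasts also make the C1 inhibitor, so stromal transcripts were read beside it. The 10 stromal and osteoblast markers summed to 4.17 to 9.34 FPKM in Naive, 1.62 to 30.6 in Resist, 1.38 to 2.82 in Naive-Mac and 1.35 to 9.88 in Resist-Mac. Dcn, Lum, Pdgfrb, Bglap and Sp7 did not pass 1.25 FPKM in any library. Resist replicate 5 had the highest Serping1 of its group (23.2 FPKM) and the highest Col1a1, the main bone collagen (13.5 FPKM). Resist replicate 2 had 14.6 FPKM of Serping1 with 0.17 FPKM of Col1a1, and Resist-Mac replicate 2 had 13.3 FPKM with 0.21 FPKM. The lowest Naive library had 1.18 FPKM of Col1a1. As a group, Col1a1 was higher in Resist-Mac (1.81 FPKM) than in Naive-Mac (0.478) by 0.78 log2 units (SE 0.31, limma adjusted p = 0.0434). Without Naive-Mac replicate 2 the change was 0.83 (limma adjusted p = 0.0515). The median of all genes moved by 0.34 there. Of the 10 markers, limma tested only Col1a1 in that pair, and its mean reached 1 FPKM only through Resist-Mac. Its means were 1.84 FPKM in Naive and 5.95 FPKM in Resist (0.94 log2 units, SE 0.52, limma adjusted p = 0.227). Of the markers listed in both groups, only Dcn had a lower mean in Resist-Mac (0.04 FPKM) than in Naive-Mac (0.634). Only Pdgfra had a lower mean in Resist (1.13 FPKM) than in Naive (1.48). The part of stromal cells in the Serping1 difference was not tested.

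**Figure D2:**
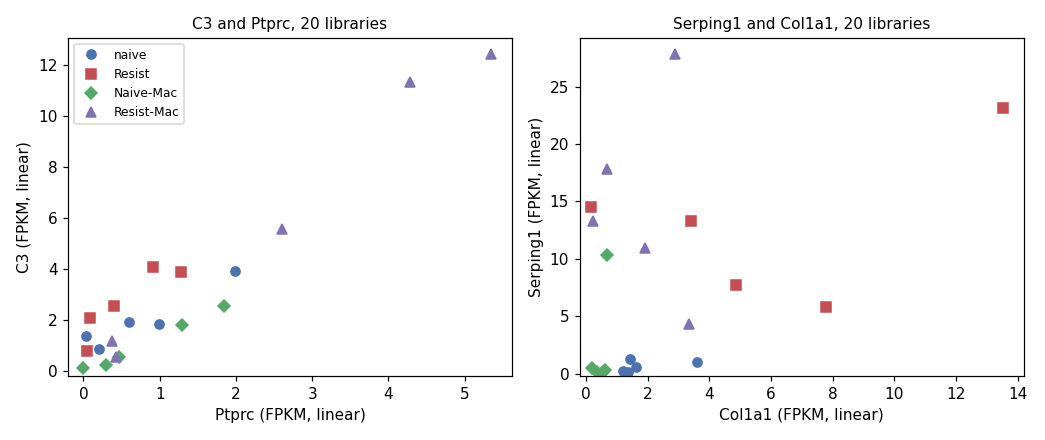
Each point is 1 of the 20 libraries, with both axes in FPKM on linear scales: C3 against Ptprc (CD45) on the left and Serping1 against Col1a1 on the right. C3 is highest in the 3 Resist-Mac libraries with the highest Ptprc, while Serping1 is at 14.6 FPKM in a Resist library with 0.17 FPKM of Col1a1.

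Clu encodes clusterin, a secreted chaperone that also blocks assembly of the terminal complement complex, and it was the most abundant member in every library. Naive libraries had 66.3, 77.8, 63.2, 85.8 and 63.5 FPKM. Resist libraries had 102, 82.0, 70.0, 97.6 and 85.1 FPKM, so the groups overlapped. The means were 71.3 ± 10.1 and 87.4 ± 12.9 FPKM (SD, n = 5 each), and the fitted change of 0.29 on the log2 scale (SE 0.11) was under the fold limit of 1.5 used for a call.

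In the depleted tumors the Clu groups separated. Naive-Mac libraries had 27.7, 32.8, 32.1, 37.6 and 28.3 FPKM. Resist-Mac libraries had 60.7, 59.1, 81.0, 86.9 and 47.4 FPKM, each above every Naive-Mac library. From Naive-Mac to Resist-Mac, Clu rose by 1.03 in log2 units (SE 0.16; adjusted p = 9.39e-05 by limma; exact permutation p = 0.00794, the smallest that 5 against 5 libraries allow), or by 0.69 above the median shift of all genes. The call held in all 20 alternatives, with changes from 0.62 to 1.15, and without Naive-Mac replicate 2 the change was 1.04 (SE 0.17, limma adjusted p = 0.000265). Unlike Serping1, Clu in Naive-Mac replicate 2 lay inside the range of the other 4 libraries.

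The lower level lay with the Naive-Mac group. Clu was higher by 1.14 log2 units in Naive than in Naive-Mac (SE 0.11, limma adjusted p = 5.68e-07), with no overlap, and was called in all 20 alternatives. Resist versus Resist-Mac gave 0.40 (SE 0.16, limma adjusted p = 0.0626). That difference was not called, but it was after quantile normalization (0.69) and after a correction for the length and GC content of transcripts (0.72). In the order of group means, Resist (87.4 FPKM), Naive (71.3) and Resist-Mac (67.0 ± 16.4) had overlapping libraries, and Naive-Mac (31.7 ± 3.97) lay below all of them.

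C3, the protein on which the activation routes converge, was present at a few FPKM in most libraries. Naive libraries had 3.92, 1.90, 0.84, 1.35 and 1.84 FPKM. Resist libraries had 2.08, 0.78, 4.05, 3.86 and 2.55 FPKM. The groups overlapped over most of their range, and the fitted change was 0.29 on the log2 scale (SE 0.30), not called.

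Naive-Mac libraries had 0.53, 0.1, 2.54, 1.81 and 0.22 FPKM of C3. Resist-Mac libraries had 12.4, 0.56, 1.16, 5.55 and 11.3 FPKM. Replicates 1, 4 and 5 of Resist-Mac stood above all others in the series, and replicates 2 and 3 lay within the Naive-Mac range. The column names of Resist-Mac replicates 2 and 3 begin with a shared code that replicates 1, 4 and 5 lack. What that code stands for is not given in the sources used here, and the split cannot be told apart from it. The fitted rise of C3 was 1.5 log2 units (SE 0.58; adjusted p = 0.0364 by limma; exact permutation p = 0.0952), but the call was lost in 10 of 19 alternatives, among them leaving out Naive-Mac replicate 2 (1.31, SE 0.61, limma adjusted p = 0.0803) and the length and GC correction (0.49, limma adjusted p = 0.476). Over the alternatives the adjusted p ran from 0.0057 to 0.476. The call was also lost without Naive-Mac replicate 1 (1.43) or 5 (1.35), and without Resist-Mac replicate 1 (1.15), 4 (1.41) or 5 (1.18).

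C3 is also made by myeloid cells, and its level went with that of Ptprc, the gene of CD45, the surface protein against which the cells were sorted. Ptprc was at 5.35, 0.43, 0.37, 2.61 and 4.28 FPKM in Resist-Mac replicates 1 to 5 and at 0.46, 0, 1.84, 1.29 and 0.3 FPKM in Naive-Mac replicates 1 to 5. The same 3 Resist-Mac libraries were thus high for both genes, and so were Naive-Mac replicates 3 and 4. In Resist, replicates 3 and 4 had the most C3 and also the most Ptprc (0.91 and 1.28 FPKM), and in Naive replicate 1 did (1.99 FPKM). The neutrophil marker sum was 8397, 2348 and 4675 FPKM in Resist-Mac replicates 1, 4 and 5, against 968 and 388 FPKM in replicates 2 and 3. In Naive-Mac replicates 1 to 5 the sum was 4719, 57.7, 5960, 3701 and 728 FPKM, where C3 did not pass 2.54 FPKM. Resist-Mac replicates 1, 4 and 5 also had the highest macrophage and stromal marker sums of their group. The part of these cells in the C3 difference was not tested.

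Cfb encodes factor B, the protease zymogen of the alternative route. Naive libraries had 0.39, 0.39, 0.48, 0.67 and 0.31 FPKM. Resist libraries had 2.12, 1.7, 1.42, 2.36 and 0.66 FPKM. All but the last exceeded every Naive library, and Resist replicate 5 lay just under the highest Naive value although its Serping1 was the highest of the group. The means were 0.448 ± 0.138 and 1.65 ± 0.663 FPKM (SD, n = 5 each), a 3.69-fold difference with a fitted change of 0.84 on the log2 scale (SE 0.18). Cfb passed the filter on low values, a mean of at least 1 FPKM, only through the Resist group, and it fell below that filter when Resist replicate 1, 2 or 4 was left out.

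In the depleted tumors Cfb was below the filter. Naive-Mac libraries had 0.8, 0.17, 0.47, 0.44 and 0.1 FPKM and Resist-Mac libraries 0.76, 0.35, 0.32, 1.99 and 1.21 FPKM, with wide overlap (exact permutation p = 0.151, and 0.278 without Naive-Mac replicate 2). The rise of the Resist group was thus not resolved in the depleted pair. Resist versus Resist-Mac gave 0.49 log2 units (SE 0.26; adjusted p = 0.145 by limma).

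C1ra encodes C1r, the protease that starts the classical cascade and is a target of the C1 inhibitor. It reached 1 FPKM in 2 of the 20 libraries. Naive libraries had 0.33, 0.55, 0.32, 0.55 and 0.27 FPKM and Resist libraries 0.36, 0.95, 0.63, 0.77 and 0.53 FPKM, which overlapped. Naive-Mac libraries had 0, 0, 0.03, 0.3 and 0 FPKM and Resist-Mac libraries 0.63, 0.16, 0.39, 1.25 and 3.02 FPKM. The means were 1.09 ± 1.15 FPKM in Resist-Mac and 0.066 ± 0.131 FPKM in Naive-Mac (n = 5 each; exact two-sided permutation p = 0.0159, not adjusted), with overlap in Naive-Mac replicate 4. Without Naive-Mac replicate 2, where C1ra was at 0, the Naive-Mac mean was 0.0825 FPKM and the difference did not pass 0.05 (exact permutation p = 0.0794). The stromal marker sum in Resist-Mac replicates 1 to 5 was 9.49, 1.35, 2.23, 6.20 and 9.88 FPKM. The 2 libraries with the most C1ra, replicates 4 and 5, were among the 3 with the most stromal transcripts. Those 3, replicates 1, 4 and 5, also had the highest neutrophil, macrophage and endothelial marker sums and the most Ptprc of the group. The part of any of these cells in the C1ra difference was not tested. Resist-Mac replicates 2 and 3 are also the libraries that share a code in their column names. C1ra was also lower in Naive-Mac than in Naive (exact permutation p = 0.0159 with and without Naive-Mac replicate 2).

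The remaining members were close to the limit of measurement. C4b, the classical route component cleaved by C1s, reached at most 0.91 FPKM, in Resist-Mac replicate 4, and was listed at 0 in 4 libraries. Its means were 0.056 FPKM in Naive, 0.11 in Resist, 0.044 in Naive-Mac and 0.348 in Resist-Mac (exact permutation p = 0.0952 for Resist-Mac versus Naive-Mac, and 0.190 without Naive-Mac replicate 2). C1s1, which encodes the partner protease of C1r, reached at most 0.08 FPKM and was listed at 0 in 15 of 20 libraries. Both membrane regulators among the members were as low: Cd55, which speeds the decay of C3 convertases, reached 0.8 FPKM and was listed at 0 in 10 libraries, and Cd59a, which blocks the membrane attack complex, reached 0.31 FPKM and was listed at 0 in 14. No direction is drawn for these genes.

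Close copies bear on some of these low values. Of the possible 150-base stretches of the C1ra transcript, 26.3% also occur in C1rb, against 8.26% for C4b in C4a, 2.86% for C1s1 in C1s2 and 2.25% for Cd55 in Cd55b. C1rb, C1s2 and C4a did not pass 0.09 FPKM in any library. How the submitters assigned reads shared by such copies is not given in the sources used here, so the C1ra level in particular is uncertain.

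Counting over the members, 4 of 9 passed the filter in Resist versus Naive and 2 were called higher there (Serping1 and Cfb), in a comparison that called 6.35% of all genes tested. The rule drew on that contrast, and nothing is read from this count. In Resist-Mac versus Naive-Mac 3 members passed the filter and all 3 were called higher (Serping1, C3 and Clu; C3 not without Naive-Mac replicate 2), but 46.2% of all genes tested were called, most of them higher. The split of those calls, 3631 higher and 878 lower, became 2303 and 2144 with median-ratio scaling. In Resist versus Resist-Mac 0 of 4 members were called by limma, against 21.7% of all genes. In Naive versus Naive-Mac 1 of 3 was called (Clu), against 59.7% of all genes. Both of these last comparisons share libraries with Resist versus Naive.

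**Figure D3:**
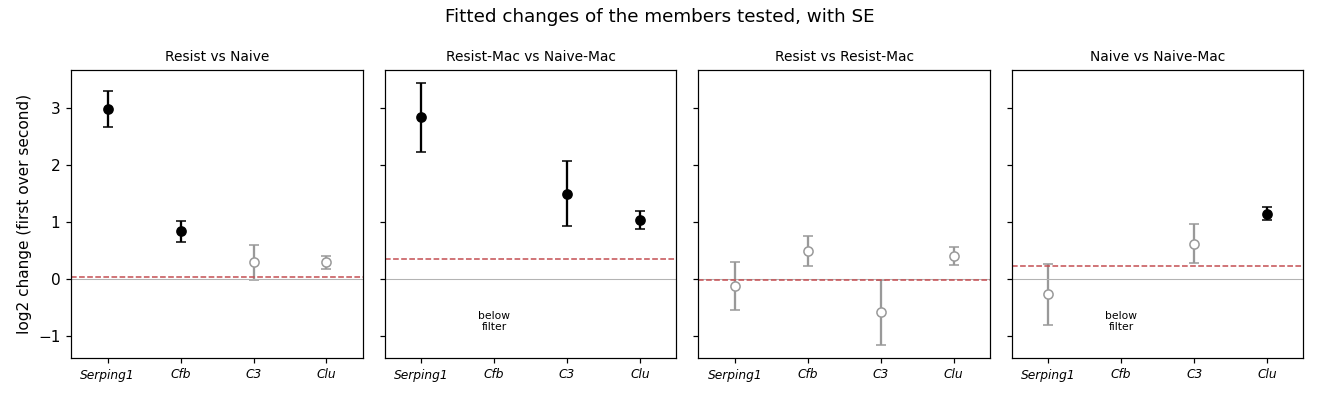
Fitted log2(FPKM + 1) changes with their SE for the 4 members that passed the filter in any comparison, the first-named group over the second. Filled points are called, open points are not, and the dashed line is the median of all genes tested, which lies at 0.34 in Resist-Mac versus Naive-Mac; Serping1 lies near 3 in both enzalutamide comparisons.

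The wider system was read from a list of 55 complement genes in 7 roles, of which 46 were listed in at least 1 table. Only 12 of them had a mean of at least 1 FPKM in any group. By role these were 1 of 10 classical route genes (C1ra), 1 of 8 lectin route genes (Fcnb), 3 of 4 genes of the alternative route and C3 (C3, Cfb and Cfp), 0 of 7 terminal genes, 2 of 8 soluble regulators (Clu and Serping1), 1 of 8 membrane regulators (Cr1l) and 4 of 10 receptors (C1qbp, C5ar1, Itgam and Itgb2). The C1q chains, usually a product of macrophages, did not pass 1.10 FPKM in any library. The terminal gene with the highest group mean was C8g, at 0.766 FPKM in Resist-Mac, and it reached 1.35 FPKM in 1 library.

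**Figure D4:**
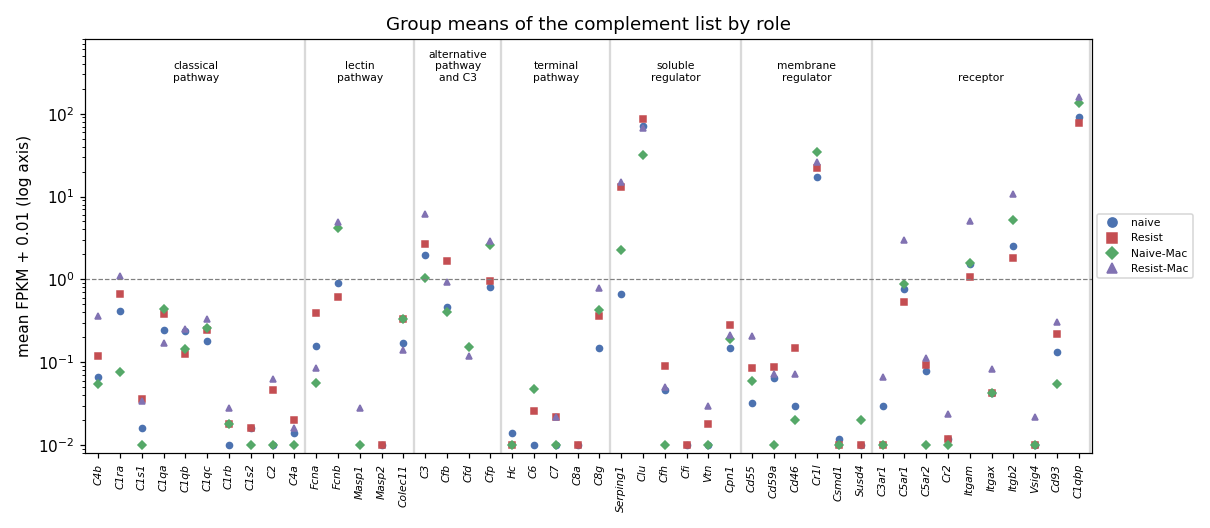
Group means of the 46 listed complement genes, ordered by role, as FPKM + 0.01 on a log axis, with the dashed line at 1. Of these, 12 genes have a group mean of at least 1 FPKM, and Serping1 has low Naive and high Resist and Resist-Mac means.

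On this list 2 of 8 genes tested were called in Resist versus Naive, both of them members, where 6.35% of all genes were called; the median change was 0.29 against 0.03 for all genes. In Resist-Mac versus Naive-Mac 3 of 10 were called, again all members, a smaller share than the 46.2% of all genes; the median was 0.85 against 0.34. Without Naive-Mac replicate 2 it was 2 of 10 (Serping1 and Clu), with a median of 0.52 against 0.34. Resist versus Resist-Mac called 1 of 11, against 21.7% of all genes (median -0.72 against -0.02). Naive versus Naive-Mac called 3 of 9, against 59.7% of all genes (median -0.43 against 0.23), and 4 of 8 without Naive-Mac replicate 2, with Cfp added (median -0.73 against 0.24).

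Leukocyte genes of the list had lower means in Resist than in Resist-Mac, none of them called. They were Itgb2 (-1.67) and Itgam (-1.23), the chains of complement receptor CR3, Fcnb (-1.42), the C5a receptor C5ar1 (-1.10) and properdin Cfp (-0.72). Cfp was at the median of the list. C1qbp (-1.03), the only gene of the list called there, also lay below Cfp. The neutrophil markers were lower in Resist too, with 5 of 6 called lower and a median of -3.12 log2 units. In Naive versus Naive-Mac the neutrophil markers had a median of -1.56, with 1 of 6 called lower. Their part in the medians of the list was not tested. The called genes that are not members are described because there were few of them, after their values were seen.

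Cr1l encodes Crry, the membrane regulator that limits C3 deposition on rodent cells, and it was the membrane regulator these tumor cells expressed. Its means were 17.4 ± 2.52 FPKM in Naive, 21.9 ± 2.71 in Resist, 34.4 ± 3.95 in Naive-Mac and 26.2 ± 5.17 in Resist-Mac (SD, n = 5 each). It was lower in Naive than in Naive-Mac (-0.95 log2 units, SE 0.11; adjusted p = 3.37e-06 by limma; -0.90 without Naive-Mac replicate 2), the opposite order to that of Clu. In Resist versus Naive the fitted change was 0.32 and in Resist-Mac versus Naive-Mac -0.39 (-0.34 without Naive-Mac replicate 2), both under the fold limit. The latter was called after median-ratio scaling (-0.80), quantile normalization (-0.61) and the length and GC correction (-0.60). C1qbp, a mainly mitochondrial protein that binds C1q, was lower in Resist than in Resist-Mac (76.2 ± 8.15 against 158 ± 20.1 FPKM, -1.03, SE 0.10, limma adjusted p = 2.40e-05). C1qbp was also lower in Naive than in Naive-Mac, but under the fold limit (-0.54, limma adjusted p = 6.14e-06; -0.56 without Naive-Mac replicate 2). That difference was called after median-ratio scaling (-0.83) and was -0.08 after quantile normalization. In Resist versus Naive the change of C1qbp was -0.27, under the fold limit. Fcnb, a ficolin of neutrophils, was lower in Naive than in Naive-Mac (-1.19, SE 0.49, limma adjusted p = 0.0408; exact permutation p = 0.103), a call kept without Naive-Mac replicate 2 (-1.60, limma adjusted p = 0.00318) and lost with the length and GC correction (-0.38). The neutrophil marker sums of these groups, given above, reached higher in Naive-Mac, and their part in the Fcnb difference was not tested.

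The genes whose pattern was most like that of Serping1 were sought among 9875 genes, by the mean absolute difference between centered log2 values over the 20 libraries. The nearest were Aldh1a7 (0.71), an aldehyde dehydrogenase, Efemp1 (0.73), an extracellular matrix protein, Aif1l (0.74), an actin-binding protein, Vim (0.74), the intermediate filament vimentin, and Upk1b (0.76), a uroplakin. None of these is a complement gene. Of the other members only C3 and Clu entered the search, and both were far from Serping1, at rank 1707 (1.73) and rank 5346 (1.89). Cfb, C1ra, C4b, C1s1, Cd55 and Cd59a were left out because their means over the 20 libraries were below 1 FPKM (0.856 FPKM for Cfb). Their likeness to Serping1 was thus not examined.

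Since these 5 genes were picked for their likeness, their levels are a description. Vim had means of 18.5 FPKM in Naive, 93.2 in Resist, 37.1 in Naive-Mac and 82.9 in Resist-Mac. Efemp1 had means of 5.96, 29.2, 4.97 and 28.0 FPKM in the same order. In Naive-Mac replicate 2, Aldh1a7, Efemp1, Aif1l, Vim and Upk1b were at 80.9, 11.4, 27.1, 99.9 and 5.25 FPKM, where the other 4 Naive-Mac libraries had means of 30.5, 3.36, 7.39, 21.4 and 0.513 FPKM. The library that raised Serping1 in Naive-Mac was thus high for each of the 5 genes as well.

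**Figure D5:**
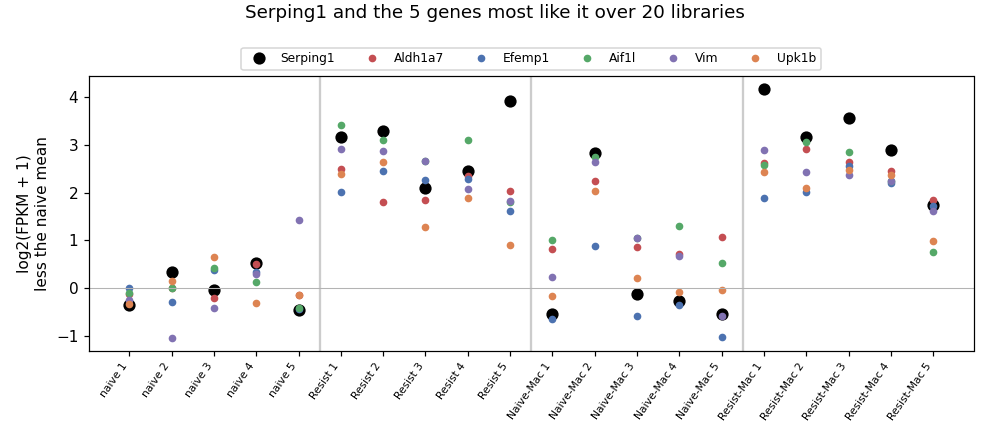
Levels of Serping1 (large black points) and of the 5 genes most like it in each of the 20 libraries, as log2(FPKM + 1) less the gene's mean over the Naive libraries. The points are raised in the Resist and Resist-Mac libraries and in Naive-Mac replicate 2, where Serping1 is at 10.3 FPKM.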

How the data were processed

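Sorted tumor cells from 20 libraries (BGISEQ-500) were analyzed as the authors' deposited gene tables. The authors deposited the Naive and Resist table as log2(FPKM + 1) values, which were returned to FPKM; the Naive-Mac and Resist-Mac tables were deposited as linear FPKM. The submitters' processing notes name Bowtie2 and mm9; the quantifier and its annotation are not given in the sources used here. Read counts were not used here, so no counting interval is given, and the tables were normalized separately.

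Values were tested as log2(FPKM + 1) with limma 3.58.1 (R 4.3.3) on genes averaging 1 FPKM or more over the 2 groups compared, with no covariate and a mean-variance trend in the prior. A call needed a Benjamini-Hochberg adjusted p under 0.05 over all genes tested and a fold change over 1.5. Genes below the filter had an exact two-sided permutation test over 252 splits. The limma step was tested on simulated data. Samples were grouped by their labels. Replicate numbers did not pair the samples.

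The members and lists were chosen with earlier results of these data known. Named were all members, their close copies, complement genes called in either enzalutamide comparison (all of them members), the 5 genes most like Serping1 and defining markers of other cells. Complement genes called in the other comparisons, C8g and the leukocyte genes of the list were named after their values were seen. Shared stretches and lengths came from GENCODE M21 transcripts, used for sequence identity and the length and GC correction alone. Alternatives were a pseudocount of 0.1, no filter or one at 5 FPKM, median-ratio scaling, quantile normalization, no variance trend, a replicate block, the length and GC correction, all groups in one fit, a fold of 2, and leaving out each library.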

Additional observations from a re-analysis of the deposited data

Results flagged for a closer look

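In 16 genes, 62 groups of 5 libraries were examined for a library far from the other 4, and 14 were found. The cutoff would flag about 3.1 if values were normally spread. A group with 1 value above 0 and the rest at 0 is always flagged, so no excess is read from this count. Naive-Mac replicate 2 gave 6 of the 14, all of them high values: Serping1 at 10.32 FPKM, Aldh1a7 at 80.91, Efemp1 at 11.41, Aif1l at 27.12, Vim at 99.91 and Upk1b at 5.25. The last 5 genes were chosen for their likeness to Serping1 over these libraries, so their flags are not independent of it.

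The other 8 were single high libraries. C4b was at 0.13 FPKM in Naive replicate 1 and C1ra at 0.3 FPKM in Naive-Mac replicate 4. C1s1 was at 0.03 FPKM in Naive replicate 4, where the rest were at 0. Cd55 was at 0.28 FPKM in Resist replicate 3 and at 0.8 FPKM in Resist-Mac replicate 1. Cd59a was at 0.31 FPKM in Resist-Mac replicate 5. Cr1l was at 21.79 FPKM in Naive replicate 1 and Aldh1a7 at 23.29 FPKM in Naive replicate 4.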

How the results depend on the processing

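Serping1 and Clu in Resist-Mac versus Naive-Mac kept their direction and call under all 20 alternatives. Under the alternatives, 135 counts of calls stayed within 1.5 times the reported count and 25 did not. In Resist versus Naive, the 2 calls among the members and on the complement list became 1 with a mean of at least 5 FPKM, with all groups in one fit and with a fold of 2. In Resist versus Resist-Mac, the count of members went from 0 to 1 with quantile normalization and with the length and GC correction (Clu), and the list count of 1 became 3 with quantile normalization, 2 with the length and GC correction and 3 with all groups in one fit. The list count in Naive versus Naive-Mac became 5 with median-ratio scaling. Leaving out 1 library gave 1 to 2 calls for both counts in Resist versus Naive (1 without Resist replicate 1, 2 or 4), 2 to 3 members and 2 to 5 list genes in Resist-Mac versus Naive-Mac (5 without Resist-Mac replicate 3), 0 to 1 members (1 without Resist-Mac replicate 4) and 1 to 5 list genes in Resist versus Resist-Mac (4, 5 and 2 without Resist-Mac replicates 2, 3 and 4), and 1 to 2 members (2 without Naive-Mac replicate 3) and 2 to 4 list genes in Naive versus Naive-Mac. Signs turned only for changes that were not called: Serping1 in Resist versus Resist-Mac was 0.22 with the length and GC correction and ran from -0.47 to 0.14 when 1 library was left out, with 0.14 without Resist-Mac replicate 1, 0.094 without Resist replicate 3 and 0.0069 without Resist replicate 4; in Naive versus Naive-Mac, Serping1 was 0.18 and C3 -0.59 with the length and GC correction. The cause was not tested.

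Replicate numbers are shared between groups, but deviations of same-numbered libraries correlated from -0.376 to 0.356, so the numbers do not pair the samples. With the replicate as a block, the list count in Resist versus Resist-Mac was 2 in place of 1, and all-gene calls were 624, 4534, 2228 and 5888 in place of 643, 4509, 2181 and 5868. Without read counts, values under about 1 FPKM, which include C4b, C1s1, Cd55 and Cd59a, carry an unknown counting error.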
